A study of Mus musculus with 121 samples.

Results

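Th, Ddc, Gch1, Slc6a3, Slc18a2, Aldh1a1, Maoa and Maob encode enzymes and transporters that make, package, recapture and break down dopamine. They were picked by gene symbol for their role in this pathway, and all 8 were found among the 24412 genes of the count table.

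Midbrain dopamine neurons turn tyrosine into L-DOPA with tyrosine hydroxylase, an enzyme that needs the cofactor tetrahydrobiopterin, and turn L-DOPA into dopamine with an aromatic amino acid decarboxylase. Dopamine is then loaded into vesicles, released in the striatum and cortex, taken back up through a membrane transporter, and oxidised by monoamine oxidases and aldehyde dehydrogenases. GDNF is a growth factor made in the striatum that signals to these neurons through the receptor Ret.

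The study addressed how a raised output of the native Gdnf gene acts on the brain, with RNA sequencing of the substantia nigra (SN), the striatum (STR) and the prefrontal cortex (PFC) in 121 libraries from adult male mice of a mixed 129Ola/ICR/C57bl6 background. The altered allele is a conditional hypermorph (cHyper, called cKU in the labels) that Cre switches on. WT mice are wt/wt, HET mice wt/cKU and HOM mice cKU/cKU.

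In the Nestin-Cre line (21 mice, 56 libraries) the mice were 2 months old by their labels (the text of the study gives a somewhat wider age for SN and STR) and untreated, and Cre acted from neural precursors onward, so the allele changed across the nervous system. In the AAV-Cre line (22 mice, 65 libraries) a virus carrying Cre was injected into the striatum of both sides at 3 to 5 months, and tissue was taken 2 months later, at 5 to 7 months. The WT mice of that line were injected too, and only cells reached by the virus could change. Genotype labels give the Gdnf allele and not the Cre status of single mice. Age and the way Cre was given differ together between the lines and cannot be told apart. The WT, HET and HOM groups held 6, 7 and 6 mice in Nestin-Cre SN and again in Nestin-Cre STR. In Nestin-Cre PFC they held 8, 6 and 4. The AAV-Cre groups held 7, 7 and 8 in SN, 7, 7 and 7 in STR, and 7, 7 and 8 in PFC. Library totals ran from 9869584 to 26750905 counts, and from 11763261 to 25305502 in SN. Levels are counts scaled to a common library total (cpm), or the same per kilobase of exon (RPKM) where genes of different length are compared.

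Gdnf itself (Entrez gene 14573) was used to check the genotype labels. In AAV-Cre STR its level had a lowest, median and highest value of 5.45, 6.74 and 7.45 cpm in WT, 6.46, 7.37 and 9.42 cpm in HET, and 7.71, 8.67 and 9.98 cpm in HOM. Every HOM library lay above every WT library, while HET overlapped with each of the other groups. The HOM difference from WT was 0.40 on the log2 scale (SE 0.09, edgeR adjusted p = 0.504, higher than the WT mean in 7 of 7), and so did not pass the test over all genes. In Nestin-Cre STR the mean was 5.69 ± 1.15 cpm (SD, n = 6) in WT, 6.20 ± 1.71 cpm (SD, n = 7) in HET and 7.04 ± 1.40 cpm (SD, n = 6) in HOM, with overlapping ranges and 6 of 6 HOM libraries above the WT mean (log2 difference 0.28, SE 0.19, adjusted p = 0.784). In SN, Gdnf stayed under the filter of 1 cpm in 3 libraries in each line. By the paper, mRNA of the recombined allele has a shorter untranslated region after the coding sequence, while counts cover the annotated exons. Gdnf counts are therefore not a like-for-like measure between genotypes, and these differences do not give the size of the rise in Gdnf. The part of the lost sequence in these values was not tested.

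The SN label was checked against 15 genes of midbrain dopamine neurons that leave out the 8 members. Their summed level was 1167 ± 204 cpm (SD, n = 6) in Nestin-Cre SN of WT and 1456 ± 323 cpm (SD, n = 7) in AAV-Cre SN of WT. None of the 15 had a group mean under 0.1 cpm in SN, and Ret was the most abundant. In STR of WT the sum was 271 and 266 cpm, most of it from Drd2, which striatal neurons also express, and 6 and 7 of the 15 genes were under 0.1 cpm. In PFC of WT the sum was 66.7 and 82.8 cpm, with Nr4a2 the most abundant. Noradrenaline neuron genes, which would share Th and Slc18a2, were near 0 in SN, with all 4 under 0.1 cpm in each SN group except Nestin-Cre WT, where library WT_4394 reached a sum of 5.74 cpm. Serotonin neuron genes were present in SN at group means of 62.4 to 93.4 cpm, with Tph2 the most abundant. The source of these transcripts was not tested.

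Some libraries stood apart and bear on the results. The summed level of 6 genes of striatal projection neurons was 1315 cpm in Nestin-Cre SN of mouse HET_4566, against a group median of 148 cpm. It was 730.0 cpm in AAV-Cre SN of mouse WT_3587, against a group median of 169 cpm. The same libraries had the highest Gdnf in SN of their lines (1.66 and 1.07 cpm), and mouse WT_3587 also had the lowest Th, Ddc and Slc6a3 of its line. Choroid plexus genes summed to 20916 cpm in AAV-Cre SN of mouse HET_3676, where the next library of the group had 211 cpm, and to 18824 cpm in Nestin-Cre STR of mouse HET_4566. The number of mouse HOM_4575, a HOM animal by its nigral and striatal labels, also appears on a cortical library marked WT. Values without several of these libraries are given beside the SN results.

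In SN of WT mice, 5 of the 8 genes were among the most abundant transcripts per length, and the other 3 were moderate. The Nestin-Cre order by mean RPKM was Aldh1a1 464 ± 58.5, Th 379 ± 50.7, Slc6a3 355 ± 65.8, Ddc 251.0 ± 38.9, Slc18a2 135 ± 25.7, Maoa 27.6 ± 3.18, Maob 24.4 ± 5.07 and Gch1 9.82 ± 2.02 (SD, n = 6). Ranges of neighbours overlapped among Aldh1a1, Th, Slc6a3 and Ddc, and between Maoa and Maob, where the higher of the pair led in only 4 of 6 libraries. The older AAV-Cre mice had Slc6a3 at 372 ± 90.2, Th at 345 ± 90.1, Aldh1a1 at 327 ± 73.6, Ddc at 235 ± 55.5, Slc18a2 at 141 ± 31.1, Maob at 25.1 ± 1.70, Maoa at 21.6 ± 1.34 and Gch1 at 11.04 ± 2.74 RPKM (SD, n = 7). There the ranges overlapped from Slc6a3 down to Slc18a2 and again between Maob and Maoa. Th exceeded 99.4% of the genes with counts in Nestin-Cre SN and 99.6% in AAV-Cre SN, while Gch1 exceeded 64.6% and 67% of them. In other words, the enzyme that starts cofactor synthesis had the lowest mean transcript level of the set in whole SN tissue. Over AAV-Cre SN libraries of all genotypes its range overlapped with that of Maoa. Its level within the cells that use the cofactor was not measured. Aldh1a1, Maob and Maoa led the order in STR and PFC of WT mice in each line.

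Each of the 8 genes was higher in SN than in the other regions. The edgeR quasi-likelihood test with an adjusted p under 0.1 over all genes called 8 of 8 members higher in SN against STR of Nestin-Cre WT, where 76.2% of all 14926 genes were called in either direction. Against PFC it called 8 of 8, where the share of all genes was 78.8%. In AAV-Cre WT it called 8 of 8 against STR and 8 of 8 against PFC, beside 75.6% and 74.1% of 15043 genes. The highest adjusted p of these 32 tests was 1.08e-07. Genes of dopamine synthesis are chosen for a process of the nigra, and Slc6a3 reached 1 cpm in no WT library of STR and entered that test through SN alone, as did Gch1 for the most part (1 of 6 and 2 of 7 STR libraries). In PFC of AAV-Cre WT, Slc6a3 and Slc18a2 reached it in 2 of 7 libraries each. These counts are therefore a description.

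The fitted folds are given as a description. Slc6a3 was 3464 times as high in SN as in STR in Nestin-Cre WT and 3937 times in AAV-Cre WT, folds that rest on 2 to 10 counts in each STR library. Slc18a2 was 283 and 455 times as high, Th 45.6 and 69.9 times, Ddc 45.8 and 33.1 times, and Gch1 35.8 and 33.0 times. Aldh1a1 differed less, at 13.6 and 15.8 times, since it kept 30.6 RPKM in STR of Nestin-Cre WT. Maoa was 2.49 and 2.05 times as high in SN, and Maob 1.82 and 1.58 times. Against PFC the folds were 825 and 994 for Slc6a3, 399.7 and 577 for Slc18a2, 36.6 and 47.5 for Th, 87.4 and 69.96 for Ddc, 22.5 and 20.4 for Gch1, 21.0 and 19.7 for Aldh1a1, 2.54 and 2.22 for Maoa, and 1.95 and 1.75 for Maob. With mouse as a block, which kept the 4 Nestin-Cre and 7 AAV-Cre WT mice with all 3 regions, 8 of 8 members were called in each of the 4 comparisons. The fold that differed most in the blocked fit was that of Th against PFC in Nestin-Cre WT, from 5.19 to 6.10 on the log2 scale. There the blocked fit also dropped WT libraries, and the block and the choice of libraries were not run apart. The AAV-Cre calls also held at 8 of 8 without library WT_3587.

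**Figure D1:**
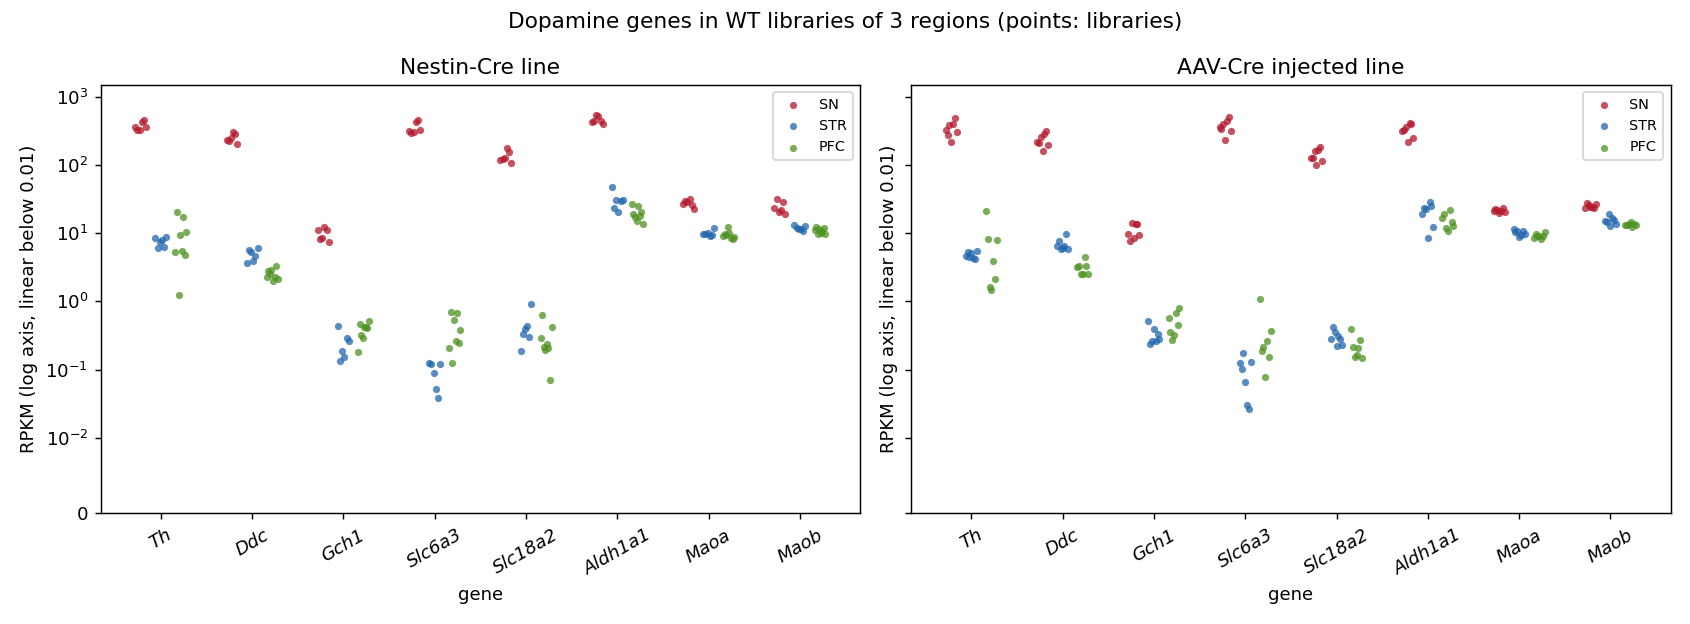
Level per length (RPKM, log axis that is linear below 0.01) of the 8 genes in each WT library of the substantia nigra (SN), striatum (STR) and prefrontal cortex (PFC), for each line. SN points lie above all STR and PFC points of the same gene, with the smallest separation for Maoa and Maob.

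No member was called between genotypes in any region or line by the edgeR quasi-likelihood test. In SN, 0 of 8 members were called in Nestin-Cre HET against WT, Nestin-Cre HOM against WT, AAV-Cre HET against WT and AAV-Cre HOM against WT, and the share of all genes called was 0% in each. At an unadjusted p under 0.05 the test had 0 of 8 members in each of these comparisons, beside 1337, 608, 694 and 1109 of all genes. DESeq2 also called 0 of 8 in each, beside 0.0336%, 0.00672%, 0.00675% and 0.0675% of all genes, and so did the edgeR likelihood ratio test, beside 2.23%, 0.8%, 2.19% and 1.47%. The median log2 difference of the 8 genes was -0.03 in Nestin-Cre HET (7 of 8 below 0), -0.19 in Nestin-Cre HOM (6 of 8 below 0), 0.21 in AAV-Cre HET (7 of 8 above 0) and -0.05 in AAV-Cre HOM (7 of 8 below 0), where the median over all genes was 0.00, 0.00, 0.00 and 0.01. HET and HOM share the WT libraries of their line. Single mice moved these medians in both directions. In Nestin-Cre HET the median ran from -0.10 without mouse HET_4606 to 0.02 without mouse WT_4609, and was -0.01 without mouse HET_4566. In Nestin-Cre HOM it ran from -0.33 without mouse HOM_4569 to -0.10 without mouse HOM_4627. In AAV-Cre HET it ran from 0.10 without mouse HET_3610 to 0.30 without mouse WT_3649, and was 0.13 without mouse WT_3587. In AAV-Cre HOM it ran from -0.10 without mouse WT_3587 to 0.02 without mouse WT_3649. The number of the 8 genes below 0 ran from 3 to 7 in Nestin-Cre HET, from 6 to 7 in Nestin-Cre HOM, from 0 to 2 in AAV-Cre HET and from 3 to 7 in AAV-Cre HOM.

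**Figure D2:**
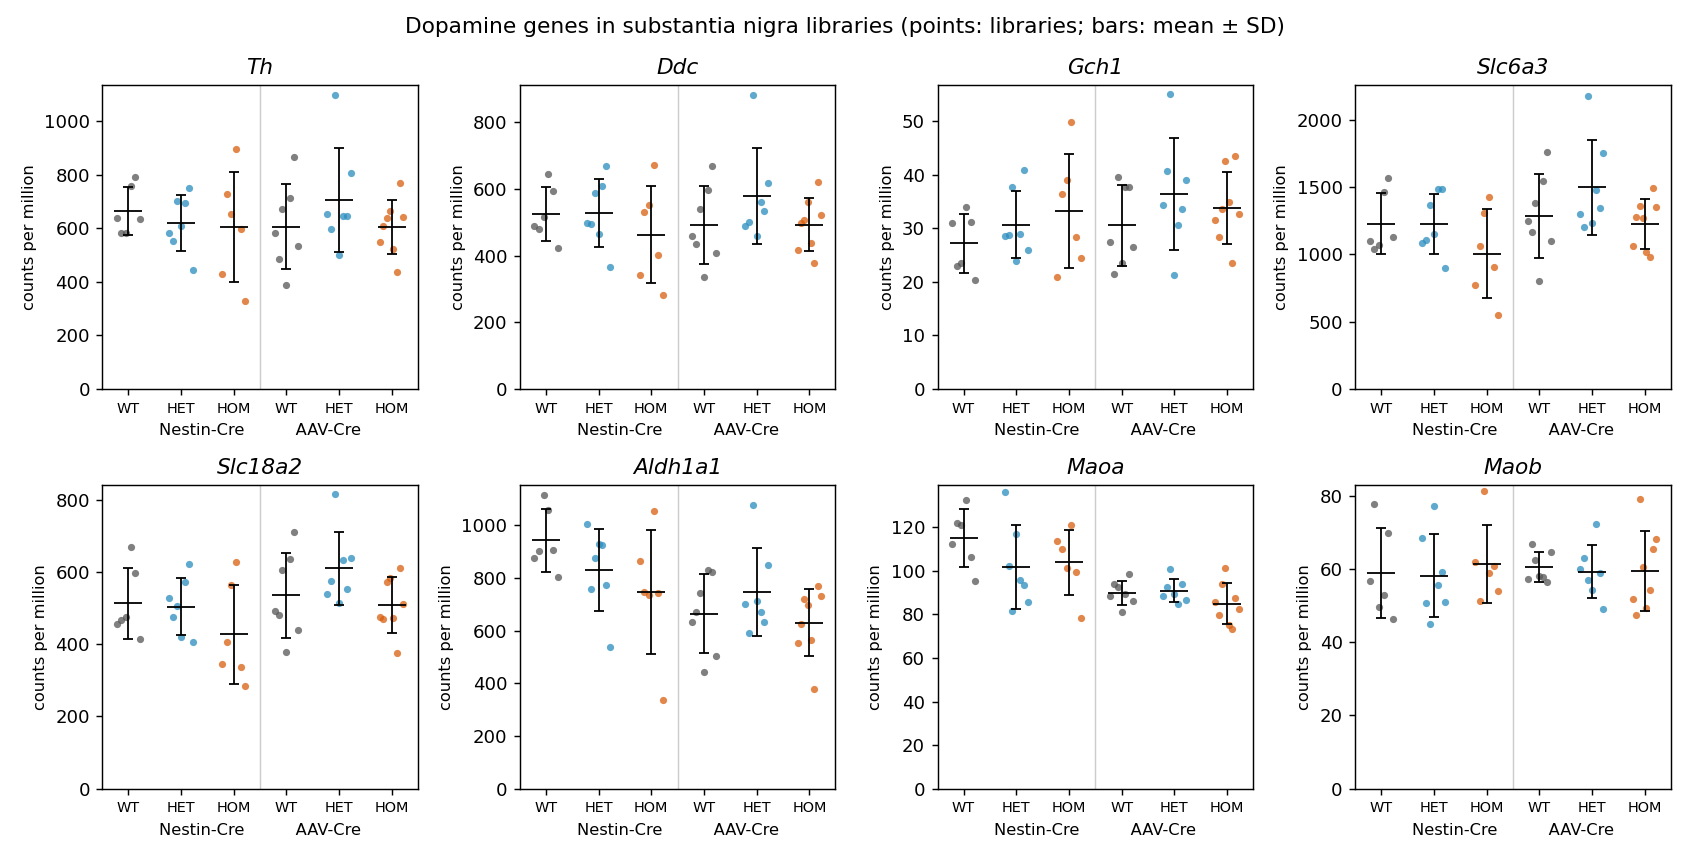
Level (cpm, from 0) of each of the 8 genes in every SN library of the Nestin-Cre line and the AAV-Cre line, by genotype, with mean and SD as bars. Genotypes overlap in each panel, and single libraries such as mouse HET_3610 lead several panels at once.

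Th encodes tyrosine hydroxylase, the rate-limiting enzyme of dopamine synthesis (Entrez gene 21823, mm10 chr7:142892776-142899966, minus strand). In Nestin-Cre SN its lowest, median and highest levels were 584, 639 and 793 cpm in WT, 446, 609 and 749.7 cpm in HET, and 329, 625 and 898 cpm in HOM. In AAV-Cre SN they were 389, 583 and 866 cpm in WT, 499.9, 647 and 1098 cpm in HET, and 438, 623 and 768 cpm in HOM. All genotypes overlapped, and the Nestin-Cre HOM group held both the lowest (mouse HOM_4627) and the highest (mouse HOM_4569) library of its line. In Nestin-Cre the log2 difference from WT was -0.12 in HET (SE 0.18, adjusted p = 0.783, lower in 4 of 7) and -0.16 in HOM (SE 0.19, adjusted p = 0.902, lower in 4 of 6). In AAV-Cre it was 0.22 in HET (SE 0.17, adjusted p = 0.950, higher in 5 of 7) and -0.01 in HOM (SE 0.16, adjusted p = 0.991, lower in 3 of 8). Without single mice, Nestin-Cre HET ran from -0.18 (HET_4606) to -0.06 (WT_4609). Nestin-Cre HOM ran from -0.31 (HOM_4569) to -0.03 (HOM_4627). AAV-Cre HET ran from 0.09 (HET_3610) to 0.33 (WT_3649), and AAV-Cre HOM from -0.10 (WT_3587) to 0.10 (WT_3649). With the level of dopamine neuron genes as a covariate, HET was at -0.25 in Nestin-Cre and 0.06 in AAV-Cre, and HOM at -0.15 and -0.05. The 95% intervals ran from -0.56 to 0.57 over the 4 comparisons, so differences of this size in either direction lay inside the precision of these groups. These are whole-tissue samples, in which fewer cells of a type and less RNA per cell cannot be told apart.

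Ddc encodes the decarboxylase that completes dopamine synthesis (Entrez gene 13195, chr11:11814101-11898144, minus strand). Nestin-Cre SN held 424, 502 and 645 cpm in WT, 365, 497 and 669 cpm in HET, and 281, 466 and 671 cpm in HOM (lowest, median and highest). AAV-Cre SN held 336, 459.6 and 670.0 cpm in WT, 459, 532 and 882 cpm in HET, and 377, 502 and 621 cpm in HOM. Its genotypes overlapped as those of Th did, and its extreme libraries came from the same mice, HOM_4627 and HOM_4569 in Nestin-Cre and WT_3587 and HET_3610 in AAV-Cre. The largest log2 differences were -0.21 in Nestin-Cre HOM (SE 0.19, adjusted p = 0.892, lower in 3 of 6) and 0.24 in AAV-Cre HET (SE 0.15, adjusted p = 0.946, higher in 5 of 7). The value in Nestin-Cre HOM was -0.09 without mouse HOM_4627 and -0.34 without mouse HOM_4569, and the value in AAV-Cre HET was 0.10 without mouse HET_3610. Differences in Nestin-Cre HET and AAV-Cre HOM were within 0.01 of 0.

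Gch1 encodes GTP cyclohydrolase, which starts the synthesis of tetrahydrobiopterin (Entrez gene 14528, chr14:47153895-47189402, minus strand). Its levels in Nestin-Cre SN were 20.4, 27.2 and 33.9 cpm in WT, 23.9, 28.7 and 40.9 cpm in HET, and 20.9, 32.4 and 49.7 cpm in HOM. Its levels in AAV-Cre SN were 21.5, 27.3 and 39.6 cpm in WT, 21.3, 34.4 and 55.0 cpm in HET, and 23.5, 33.1 and 43.5 cpm in HOM. Gch1 was the only member with a mean above WT in all 4 comparisons, yet every range overlapped with WT. The log2 differences were 0.16 in Nestin-Cre HET (SE 0.19, adjusted p = 0.7001, higher in 5 of 7), 0.26 in Nestin-Cre HOM (SE 0.19, adjusted p = 0.892, higher in 4 of 6), 0.26 in AAV-Cre HET (SE 0.18, adjusted p = 0.946, higher in 6 of 7) and 0.14 in AAV-Cre HOM (SE 0.17, adjusted p = 0.862, higher in 6 of 8). Single libraries moved them, to 0.06 without mouse HET_4606, 0.11 without mouse HOM_4569, 0.13 without mouse HET_3610 and 0.07 without mouse WT_3578, in that order. The highest values in the same order were 0.24 without mouse WT_4545, 0.37 without mouse HOM_4393, 0.35 without mouse HET_3652 and 0.21 without mouse WT_3585. With the level of dopamine neuron genes as a covariate the Nestin-Cre HET difference turned to -0.02. The difference was then 0.28 in Nestin-Cre HOM, 0.10 in AAV-Cre HET and 0.10 in AAV-Cre HOM. Per length, the ratio of Gch1 to Th in Nestin-Cre SN was 0.0258 ± 0.00353 in WT (SD, n = 6), 0.0316 ± 0.00443 in HET (SD, n = 7) and 0.0355 ± 0.00639 in HOM (SD, n = 6), and in AAV-Cre SN it was 0.0323, 0.0328 and 0.0356. The difference in this ratio was not tested.

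Slc6a3 encodes the dopamine transporter, which returns released dopamine to the neuron (Entrez gene 13162, chr13:73536747-73578672, plus strand). In Nestin-Cre SN it ranged over 1037, 1115 and 1569 cpm in WT, 897, 1148 and 1488 cpm in HET, and 548, 986 and 1427.5 cpm in HOM. In AAV-Cre SN it ranged over 803, 1244 and 1758 cpm in WT, 1204, 1341 and 2176 cpm in HET, and 979, 1275 and 1494 cpm in HOM. In Nestin-Cre HOM 3 libraries lay below the lowest WT library and the other 3 lay within the WT range. The log2 difference there was -0.31 (SE 0.20, adjusted p = 0.892, lower in 4 of 6), against -0.02 in Nestin-Cre HET (SE 0.19, adjusted p = 0.974, lower in 4 of 7). The HOM difference ran from -0.44 without mouse HOM_4569 to -0.19 without mouse HOM_4627. AAV-Cre differences were 0.22 in HET (SE 0.15, adjusted p = 0.946, higher in 5 of 7) and -0.07 in HOM (SE 0.15, adjusted p = 0.922, lower in 5 of 8). The AAV-Cre HET difference ran from 0.11 without mouse HET_3610 to 0.32 without mouse WT_3649. The ratio of Slc6a3 to Th per length was steadier between mice than either gene, at 0.932 ± 0.0510 in WT, 1.00 ± 0.0477 in HET and 0.851 ± 0.102 in HOM of Nestin-Cre (SD, n = 6, 7 and 6), and 1.08, 1.09 and 1.04 in AAV-Cre.

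Slc18a2 encodes the vesicular monoamine transporter, which fills synaptic vesicles (Entrez gene 214084, chr19:59260878-59296012, plus strand). Nestin-Cre SN gave 414, 472 and 668 cpm in WT, 405, 505 and 623 cpm in HET, and 283, 376 and 626 cpm in HOM. AAV-Cre SN gave 378, 491 and 709.6 cpm in WT, 515, 574 and 815 cpm in HET, and 375.0, 493 and 611 cpm in HOM. Again the lowest Nestin-Cre libraries were HOM and the highest AAV-Cre library was mouse HET_3610, with overlap of all genotypes. The log2 difference was -0.29 in Nestin-Cre HOM (SE 0.18, adjusted p = 0.892, lower in 4 of 6) and 0.19 in AAV-Cre HET (SE 0.13, adjusted p = 0.946, higher in 6 of 7). It was -0.04 in Nestin-Cre HET and -0.08 in AAV-Cre HOM. The Nestin-Cre HOM value ran from -0.43 without mouse HOM_4569 to -0.19 without mouse WT_4545. The AAV-Cre HET value ran from 0.11 without mouse HET_3610 to 0.28 without mouse WT_3649. Annotated exons of Slc18a2 share 111 of 5225 bases with the antisense gene Gm29261.

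Aldh1a1 encodes an aldehyde dehydrogenase that clears the reactive aldehyde made from dopamine and marks a ventral group of nigral neurons (Entrez gene 11668, chr19:20601982-20643462, plus strand). In Nestin-Cre SN its values were 803, 902 and 1115 cpm in WT, 537, 876 and 1005 cpm in HET, and 335, 745 and 1053 cpm in HOM. In AAV-Cre SN they were 444, 671 and 830.4 cpm in WT, 592, 700.4 and 1077 cpm in HET, and 379.6, 661 and 767 cpm in HOM. Most Nestin-Cre HET and HOM libraries lay below the WT mean, and 3 of 7 HET and 4 of 6 HOM libraries lay below the lowest WT library. Aldh1a1 had the largest difference of the 8 genes in Nestin-Cre HOM, at -0.36 (95% CI -0.78 to 0.05, adjusted p = 0.892, lower in 5 of 6), and -0.20 in HET (SE 0.19, adjusted p = 0.647, lower in 6 of 7). The HOM difference ran from -0.49 without mouse HOM_4569 to -0.21 without mouse HOM_4627. The Nestin-Cre HET difference ran from -0.25 without mouse HET_4564 to -0.13 without mouse HET_4628. In AAV-Cre the differences were 0.18 in HET (SE 0.16, adjusted p = 0.959, higher in 5 of 7) and -0.08 in HOM (SE 0.15, adjusted p = 0.917, lower in 4 of 8). AAV-Cre HET ran from 0.07 without mouse HET_3610 to 0.24 without mouse WT_3588. AAV-Cre HOM ran from -0.16 without mouse WT_3587 to -0.0045 without mouse HOM_3687.

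Maoa encodes monoamine oxidase A of the outer mitochondrial membrane (Entrez gene 17161, chrX:16619698-16687812, plus strand). In Nestin-Cre SN it had 95.2, 117 and 133 cpm in WT, 81.7, 95.9 and 136 cpm in HET, and 78.4, 106 and 121 cpm in HOM. In AAV-Cre SN it had 81.3, 89.5 and 98.5 cpm in WT, 84.8, 89.4 and 101 cpm in HET, and 73.5, 84.3 and 101 cpm in HOM. Genotypes overlapped. The SD between mice of a group, on the log2 scale, was 0.11 in AAV-Cre SN, against a median of 0.15 over all genes. In Nestin-Cre SN it was 0.23, near the median of 0.25 there. Its log2 difference was -0.19 in Nestin-Cre HET (SE 0.12, adjusted p = 0.535, lower in 5 of 7), -0.17 in Nestin-Cre HOM (SE 0.13, adjusted p = 0.892, lower in 5 of 6), 0.02 in AAV-Cre HET (SE 0.06, adjusted p = 0.989, higher in 3 of 7) and -0.09 in AAV-Cre HOM (SE 0.06, adjusted p = 0.735, lower in 6 of 8).

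Maob encodes monoamine oxidase B, found mostly in glia and serotonin neurons, and lies tail to tail with Maoa, 21468 bases away (Entrez gene 109731, chrX:16709281-16817366, minus strand). Its levels in Nestin-Cre SN were 46.3, 54.7 and 77.6 cpm in WT, 45.1, 55.6 and 77.2 cpm in HET, and 51.3, 59.8 and 81.2 cpm in HOM. Its levels in AAV-Cre SN were 56.5, 57.9 and 66.8 cpm in WT, 49.1, 58.9 and 72.2 cpm in HET, and 47.3, 57.4 and 78.9 cpm in HOM. The groups covered each other almost fully. The log2 differences were -0.03 in Nestin-Cre HET (SE 0.14, adjusted p = 0.944, lower in 4 of 7), 0.04 in Nestin-Cre HOM (SE 0.14, adjusted p = 0.959, higher in 4 of 6), -0.02 in AAV-Cre HET (SE 0.10, adjusted p = 0.991, lower in 5 of 7) and -0.03 in AAV-Cre HOM (SE 0.09, adjusted p = 0.955, lower in 4 of 8).

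**Figure D3:**
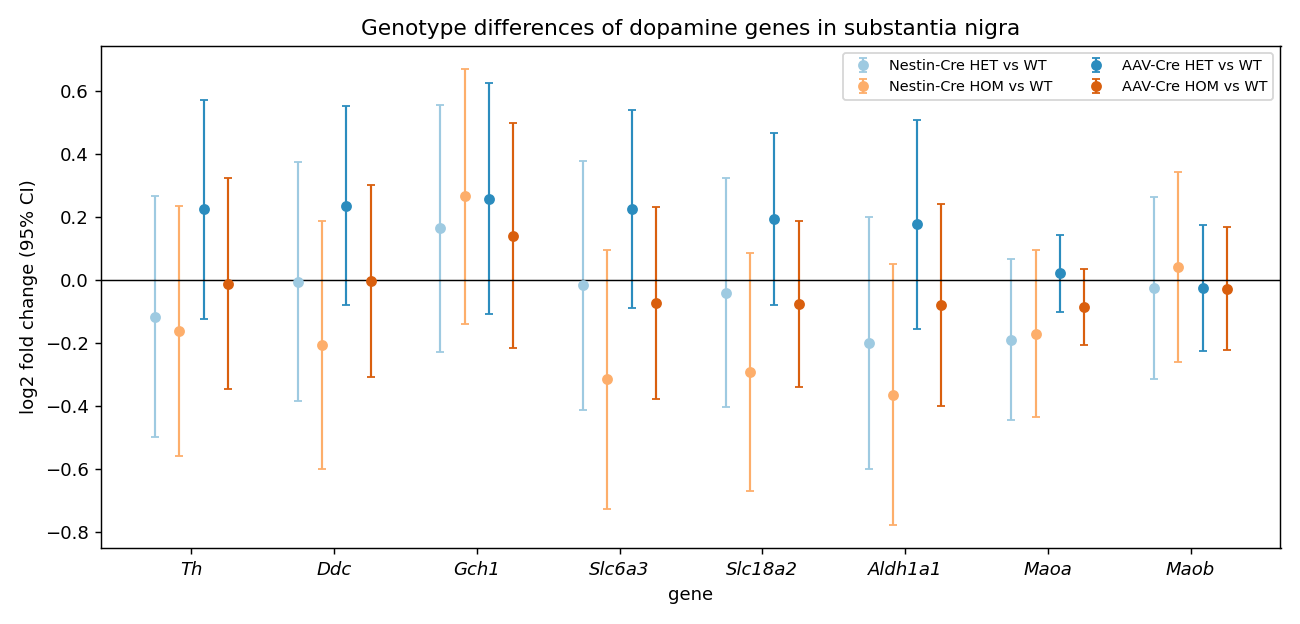
Log2 difference from WT with its 95% CI for the 8 genes in the 4 SN comparisons. All intervals cover 0, the Nestin-Cre HOM estimates reach -0.36 for Aldh1a1, and the AAV-Cre HET estimates lie near 0.2 for the genes of dopamine neurons.

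The 2 lines were compared directly in SN. The interaction, the AAV-Cre difference minus the Nestin-Cre difference, called 0 of 8 members for HET and 0 of 8 for HOM by the edgeR quasi-likelihood test, beside 0% of all 15108 genes in each. At an unadjusted p under 0.05 there were 0 members in each, beside 2120 and 501 of all genes. DESeq2 called 0 members too, beside 0.106% and 0% of all genes, and so did the likelihood ratio test, beside 4.56% and 1.07%. For HET the difference between lines was above 0 in 8 of 8 genes, with a median of 0.25 and a range from 0.01 for Maob to 0.39 for Aldh1a1 (SE 0.26, adjusted p = 0.458), where the median over all genes was 0.01. For HOM it was above 0 in 6 of 8 with a median of 0.18 and an adjusted p of 0.986 for each. Without the SN library of each line highest in striatal genes (HET_4566 and WT_3587, a choice made after seeing the data) the HET median was 0.14, with Maob at -0.05, and the HOM median was 0.09.

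In STR and PFC no member was called between genotypes by the edgeR quasi-likelihood test either (0 of 7 tested in each STR comparison and 0 of 8 in each PFC comparison). The share of all genes called was 0% in Nestin-Cre STR of HET and of HOM, 0% in AAV-Cre STR of HET and of HOM, 0% in Nestin-Cre PFC of HET, 0.25% in Nestin-Cre PFC of HOM (36 genes), 0% in AAV-Cre PFC of HET and 0.0137% in AAV-Cre PFC of HOM (2 genes). At an unadjusted p under 0.05 there were 3 members in Nestin-Cre STR of HET, beside 2513 of all genes, 1 in Nestin-Cre PFC of HOM, beside 1446, 1 in AAV-Cre STR of HOM, beside 671, 1 in AAV-Cre PFC of HET, beside 1806, and 0 in the other comparisons, beside 251 to 2074. DESeq2 called 0 members in all of them, beside 3.69% and 0.0069% of all genes in Nestin-Cre STR (HET and HOM), 0.806% and 1.58% in Nestin-Cre PFC, 0% and 0.0341% in AAV-Cre STR, and 0.041% and 1.26% in AAV-Cre PFC. The likelihood ratio test, whose dispersion has no gene-wise term, called 2 members in Nestin-Cre STR of HET, beside 8.57% of all genes, and 2 of HOM, beside 1.91% (Slc18a2 and Aldh1a1 in each). It called 2 in Nestin-Cre PFC of HOM, beside 2.15% (Th and Aldh1a1), and 1 in AAV-Cre PFC of HET, beside 1.7% (Th). In Nestin-Cre PFC of HET, AAV-Cre STR of HET and of HOM and AAV-Cre PFC of HOM it called 0 members, beside 2.88%, 0.382%, 1.19% and 2.93%. The quasi-likelihood counts of all genes also turned on single libraries. In Nestin-Cre STR of HET the count was 667 without mouse HET_4579 and 299 without mouse WT_4612, and in Nestin-Cre PFC of HOM it ran from 1 without mouse HOM_4568 to 122 without mouse HOM_4580, while 0 members were called in each.

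The Slc18a2 transcript was scarce in STR, where dopamine axons but not their cell bodies lie. In Nestin-Cre STR it had a lowest, median and highest level of 0.711, 1.36 and 3.52 cpm in WT, 1.31, 2.28 and 14.9 cpm in HET, and 0.453, 1.72 and 8.07 cpm in HOM. Mice HET_4564, HET_4578, HOM_4575 and HOM_4627 stood above the rest. Mouse HOM_4393, at 0.453 cpm, lay below the lowest WT library, and the other HET and HOM libraries lay within the WT range. The HET difference was 1.59 on the log2 scale (SE 0.68, adjusted p = 0.255, higher in 5 of 7). It was 1.04 without mouse HET_4578 and 1.95 without mouse WT_4612. In AAV-Cre STR the means were 1.14 ± 0.257 cpm in WT, 1.57 ± 0.782 cpm in HET and 1.95 ± 0.448 cpm in HOM (SD, n = 7 each), with a HOM difference of 0.77 (SE 0.25, adjusted p = 0.973, higher in 6 of 7). Slc6a3 was under the filter in STR and was not tested there.

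The sum of 6 striatal projection neuron genes moved with the Nestin-Cre values of Slc18a2 and Ddc. It was 7993 ± 745 cpm in WT (SD, n = 6), 5949 ± 1382 cpm in HET (SD, n = 7) and 7019 ± 988 cpm in HOM (SD, n = 6) of Nestin-Cre STR, with Ppp1r1b the most abundant and none of the 6 under 0.1 cpm. Over the 19 Nestin-Cre STR libraries, with genotype means removed, Slc18a2 fell as this sum rose (Pearson r = -0.728, permutation p = 0.00033, adjusted p = 0.000949; Spearman rho = -0.677, permutation p = 0.00216, adjusted p = 0.00621). Without the 2 libraries farthest from the median r was -0.664. For Ddc r was -0.612 (permutation p = 0.00522, adjusted p = 0.012; rho = -0.628, permutation p = 0.00493, adjusted p = 0.0126) and -0.380 without those 2, so that relation rests in large part on them. For 4 other members r was closer to 0. For Maob it was -0.109 (permutation p = 0.657, adjusted p = 0.775, rho = -0.132 with permutation p = 0.591 and adjusted p = 0.715, and 0.0407 without the 2 farthest). For Th it was -0.0439 (permutation p = 0.858, adjusted p = 0.877, rho = -0.168 with permutation p = 0.490 and adjusted p = 0.663, and -0.191 without), for Gch1 -0.150 (permutation p = 0.541, adjusted p = 0.673, rho = -0.151 with permutation p = 0.535 and adjusted p = 0.687, and -0.118 without) and for Maoa -0.468 (permutation p = 0.0423, adjusted p = 0.0811, rho = -0.398 with permutation p = 0.0927 and adjusted p = 0.171, and -0.314 without). In AAV-Cre STR (n = 21) the relations of Slc18a2 and Ddc had the same sign and larger p, and the lines were not tested against each other. Slc18a2 had r = -0.298 (permutation p = 0.188, adjusted p = 0.298, rho = -0.429 with permutation p = 0.0536 and adjusted p = 0.107, and -0.379 without the 2 farthest), and Ddc r = -0.197 (permutation p = 0.388, adjusted p = 0.558, rho = -0.219 with permutation p = 0.339 and adjusted p = 0.503, and -0.305 without). There Maob had r = -0.642 (permutation p = 0.00172, adjusted p = 0.00465, rho = -0.636 with permutation p = 0.00266 and adjusted p = 0.0072, and -0.705 without) and Maoa r = -0.611 (permutation p = 0.0037, adjusted p = 0.00896, rho = -0.568 with permutation p = 0.00819 and adjusted p = 0.0198, and -0.5498 without). These belong to 46 relations of a member with a marker sum that were chosen after the values were seen. Of the 7 tested members, 5 had a difference above 0 in Nestin-Cre STR of HET, none of which passed the test. Beside Slc18a2, the smallest unadjusted p were those of Ddc, at 0.44 (SE 0.18, adjusted p = 0.243, above the WT mean in 6 of 7), and Maob, at 0.17 (SE 0.08, adjusted p = 0.281, above the WT mean in 6 of 7). The part of the tissue mix in the Slc18a2 and Ddc differences was not tested.

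Aldh1a1 was lower in the mutants of several groups outside SN, also without passing the test. In Nestin-Cre PFC its 4 HOM libraries had a mean of 28.1 ± 7.78 cpm against 39.5 ± 9.23 cpm in WT (SD, n = 8), a log2 difference of -0.51 (SE 0.19, adjusted p = 0.354, lower in 4 of 4), with overlapping ranges. In Nestin-Cre STR it was -0.50 in HET (SE 0.31, adjusted p = 0.388, lower in 5 of 7) and -0.63 in HOM (SE 0.32, adjusted p = 0.784, lower in 5 of 6). The HET value ran from -0.72 without mouse HET_4579 to -0.32 without mouse WT_4326. The HOM value ran from -0.81 without mouse HOM_4393 to -0.45 without mouse WT_4326. Over the Nestin-Cre STR libraries Aldh1a1 had r = 0.509 with the striatal projection neuron sum (permutation p = 0.0261, adjusted p = 0.0522, rho = 0.386 with permutation p = 0.103 and adjusted p = 0.182), and 0.320 without the 2 farthest. In AAV-Cre STR the sign was the opposite, with r = -0.426 (permutation p = 0.0543, adjusted p = 0.0999, rho = -0.396 with permutation p = 0.0760 and adjusted p = 0.146, and -0.367 without). The part of that sum in the Aldh1a1 differences was not tested. Maob in AAV-Cre PFC of HET was -0.13 (SE 0.06, adjusted p = 0.362, lower in 6 of 7).

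Th in PFC varied widely within each genotype. Its levels ran from 2.19 to 35.6 cpm among Nestin-Cre WT libraries and from 2.59 to 36.9 cpm among AAV-Cre WT libraries, with AAV-Cre HET up to 42.4 cpm. Its log2 difference from WT was 0.24 in Nestin-Cre HET (SE 0.49, adjusted p = 0.912, higher in 3 of 6), -0.57 in Nestin-Cre HOM (SE 0.60, adjusted p = 0.831, lower in 3 of 4), 0.69 in AAV-Cre HET (SE 0.59, adjusted p = 0.643, higher in 4 of 7) and -0.08 in AAV-Cre HOM (SE 0.59, adjusted p = 0.969, lower in 6 of 8). The Nestin-Cre HOM difference was -1.96 without mouse HOM_4580 and -0.26 without mouse HOM_4569. Olfactory bulb genes varied with it. Their sum (6 genes, Cdhr1 the most abundant, none under 0.1 cpm in WT) ran from 17.7 to 258 cpm in Nestin-Cre WT and from 68.3 to 297 cpm in AAV-Cre WT. Over 18 Nestin-Cre PFC libraries, with genotype means removed, Th followed that sum with r = 0.968 (permutation p = 1e-05, the smallest that these permutations can give, adjusted p = 4.6e-05; rho = 0.950, permutation p = 1e-05, adjusted p = 7.67e-05), and r was 0.939 without the 2 farthest libraries. Over 22 AAV-Cre PFC libraries r was 0.887 (permutation p = 1e-05, adjusted p = 4.6e-05; rho = 0.859, permutation p = 2e-05, adjusted p = 9.2e-05) and 0.845 without the 2 farthest. Slc6a3 followed it as well, with r = 0.808 (permutation p = 7e-05, adjusted p = 0.00023; rho = 0.806, permutation p = 0.00013, adjusted p = 0.000495) in Nestin-Cre and r = 0.805 (permutation p = 3e-05, adjusted p = 0.000106; rho = 0.740, permutation p = 0.00014, adjusted p = 0.000495) in AAV-Cre, and 0.692 and 0.765 without the 2 farthest. For Slc18a2 r was 0.591 in Nestin-Cre (permutation p = 0.00973, adjusted p = 0.0213, rho = 0.536 with permutation p = 0.0246 and adjusted p = 0.0514, and 0.567 without the 2 farthest) and 0.483 in AAV-Cre (permutation p = 0.0214, adjusted p = 0.0447, rho = 0.486 with permutation p = 0.0229 and adjusted p = 0.0502, and 0.364 without). The synthesis genes Ddc and Gch1 did not follow the sum in either line. For Ddc r was -0.0549 in Nestin-Cre (permutation p = 0.830, adjusted p = 0.868, rho = -0.0196 with permutation p = 0.940 and adjusted p = 0.961, and -0.0204 without) and 0.0557 in AAV-Cre (permutation p = 0.806, adjusted p = 0.867, rho = 0.0999 with permutation p = 0.658 and adjusted p = 0.738, and 0.0567 without). For Gch1 r was 0.159 in Nestin-Cre (permutation p = 0.527, adjusted p = 0.673, rho = 0.146 with permutation p = 0.562 and adjusted p = 0.699, and 0.198 without) and 0.122 in AAV-Cre (permutation p = 0.589, adjusted p = 0.713, rho = 0.102 with permutation p = 0.651 and adjusted p = 0.738, and -0.0117 without). The relations of Aldh1a1, Maoa and Maob with this sum had adjusted p of 0.132 or more. The olfactory bulb lies next to the dissected cortex and holds dopamine neurons of its own. Its part in the PFC values of Th was not tested.

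Within SN the dopamine neuron genes rose and fell together from mouse to mouse. Correlations with Th were computed on log2 cpm with genotype means removed, 14 relations in all. In Nestin-Cre SN (n = 19) r was 0.954 for Slc6a3 (rho = 0.905) and 0.943 for Ddc (rho = 0.870), each with a permutation p of 1e-05, the smallest possible, and an adjusted p of 2e-05. For Slc18a2 r was 0.826 (permutation p = 3e-05, adjusted p = 5.25e-05; rho = 0.744, permutation p = 0.00038, adjusted p = 0.000591), and for Gch1 r was 0.817 (permutation p = 4e-05, adjusted p = 6.22e-05; rho = 0.816, permutation p = 8e-05, adjusted p = 0.00014). Without the 2 libraries farthest from the median of Th these were 0.917, 0.908, 0.713 and 0.785. In AAV-Cre SN (n = 22) r was 0.972 for Ddc (rho = 0.957), 0.960 for Slc6a3 (rho = 0.955), 0.936 for Slc18a2 (rho = 0.887), 0.870 for Aldh1a1 (rho = 0.867) and 0.853 for Gch1 (rho = 0.809), each with a permutation p of 1e-05 and an adjusted p of 2e-05 for r and rho alike, and 0.953, 0.936, 0.905, 0.835 and 0.810 without the 2 farthest.

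Aldh1a1 in Nestin-Cre SN and the oxidases are given apart, and no difference between correlations was tested. Aldh1a1 in Nestin-Cre SN had r = 0.708 (permutation p = 0.00095, adjusted p = 0.00133) but rho = 0.409 (permutation p = 0.0827, adjusted p = 0.105), and r = 0.356 without the 2 farthest libraries, so that relation rests on those 2. Maoa had r = 0.376 (permutation p = 0.116, adjusted p = 0.135; rho = 0.193, permutation p = 0.429, adjusted p = 0.501) in Nestin-Cre, 0.0133 without the 2 farthest, and r = 0.628 (permutation p = 0.00169, adjusted p = 0.00215; rho = 0.522, permutation p = 0.0136, adjusted p = 0.019) in AAV-Cre, 0.491 without the 2 farthest. Maob showed no relation with Th, with r = 0.124 (permutation p = 0.612, adjusted p = 0.659; rho = 0.109, permutation p = 0.656, adjusted p = 0.656) and r = 0.0753 (permutation p = 0.739, adjusted p = 0.739; rho = 0.120, permutation p = 0.593, adjusted p = 0.639), and 0.0594 and 0.188 without the 2 farthest. Against the summed level of the 15 other dopamine neuron genes, among the 46 relations, the genes ranked in a different order, and r for Th was 0.764 in Nestin-Cre (permutation p = 9e-05, adjusted p = 0.000276; rho = 0.723, permutation p = 0.00073, adjusted p = 0.00224; 0.716 without the 2 farthest) and 0.978 in AAV-Cre (permutation p = 1e-05, adjusted p = 4.6e-05; rho = 0.963, permutation p = 1e-05, adjusted p = 7.67e-05; 0.969 without). For Maob it was 0.152 in Nestin-Cre (permutation p = 0.53, adjusted p = 0.673; rho = 0.118, permutation p = 0.631, adjusted p = 0.738; 0.00765 without) and 0.0778 in AAV-Cre (permutation p = 0.729, adjusted p = 0.82; rho = 0.138, permutation p = 0.538, adjusted p = 0.687; 0.173 without). In Nestin-Cre r was 0.898 for Slc18a2, 0.879 for Gch1, 0.845 for Slc6a3 and 0.840 for Ddc (permutation, adjusted p at most 7.67e-05). For Aldh1a1 r was 0.326 in Nestin-Cre (permutation p = 0.176, adjusted p = 0.296, rho = 0.175). In AAV-Cre r for Aldh1a1 was 0.863 (permutation p = 1e-05, adjusted p = 4.6e-05, rho = 0.820). Maoa had r = 0.0845 in Nestin-Cre and 0.612 in AAV-Cre. How much of the shared variation is the number of dopamine neurons in the dissected piece was not tested.

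**Figure D4:**
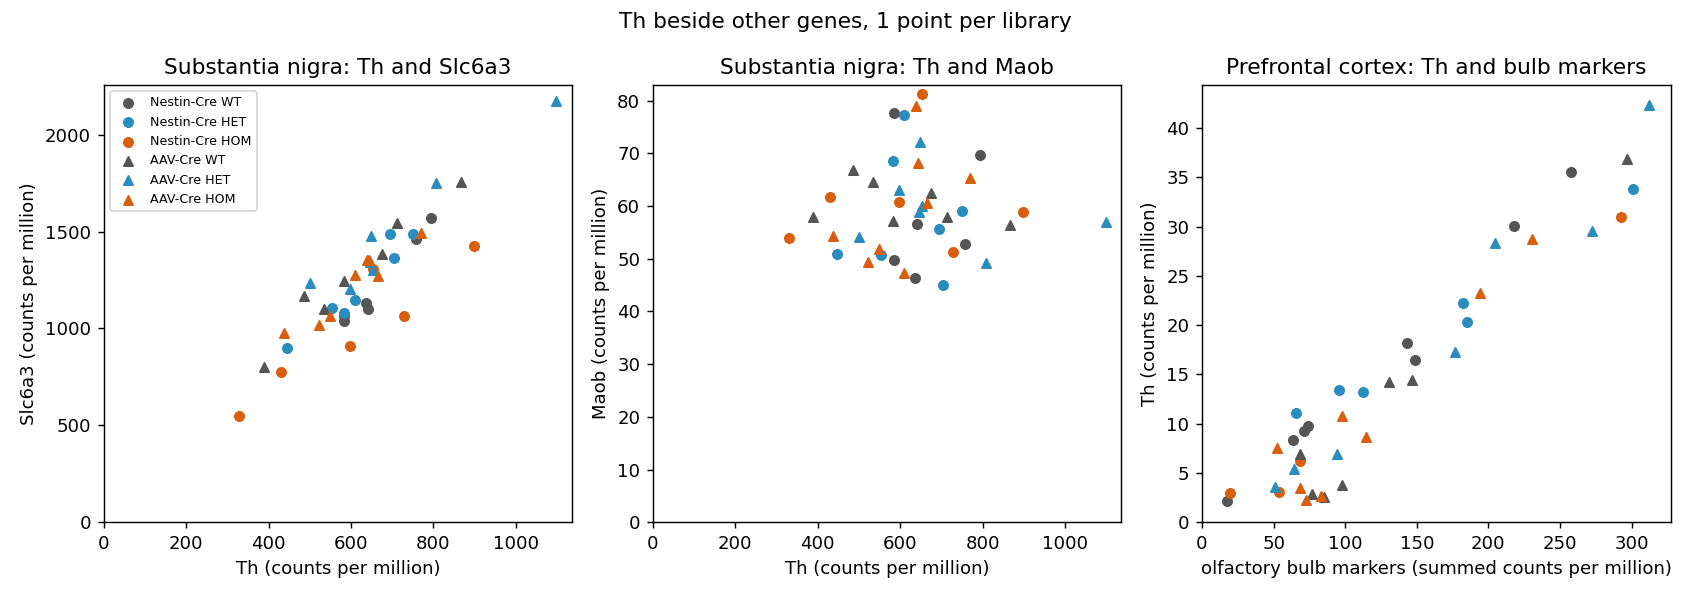
Th level against Slc6a3 and against Maob in SN libraries, and Th level against the summed olfactory bulb genes in PFC libraries (all in cpm, 1 point per library, circles for Nestin-Cre and triangles for AAV-Cre). Slc6a3 rises with Th (r = 0.954 and 0.960), Maob does not (r = 0.124 and 0.0753), and Th in PFC rises with the bulb genes (r = 0.968 and 0.887).

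The spread between mice of a group was also smaller for the oxidases. The residual SD on the log2 scale in AAV-Cre SN was 0.33 for Th, 0.30 for Ddc, 0.36 for Gch1, 0.31 for Slc6a3, 0.26 for Slc18a2 and 0.33 for Aldh1a1, against 0.11 for Maoa, 0.19 for Maob and a median of 0.15 over all genes. In Nestin-Cre SN it was 0.33 to 0.39 for the same 6 genes, 0.23 for Maoa, 0.26 for Maob and 0.25 for the median gene. From the lowest to the highest library, Th spanned 2.73 times in Nestin-Cre SN and 2.82 times in AAV-Cre SN.

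The genes most like Th, ranked by the lower of the r values of the 2 lines among 14156 genes with the members left out, were Sncg (0.881), Cadps2 (0.881), Chrna6 (0.877), Trpc6 (0.844), Agpat4 (0.834), C230014O12Rik (0.828), Srpx2 (0.827), Kcns3 (0.827), Agk (0.814) and Pbx3 (0.806). Sncg and Chrna6 also belong to the list of 15 dopamine neuron genes. The ranking covers 19 and 22 libraries and carries no test.

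Marker lists of the cells around the dopamine neurons are set beside the SN comparisons. None of their genes was called in SN by the edgeR quasi-likelihood test. The dopamine neuron list had a median log2 difference of 0.22 in Nestin-Cre HET, -0.02 in Nestin-Cre HOM, 0.14 in AAV-Cre HET (15 of 15 above 0) and 0.05 in AAV-Cre HOM. Its summed level in HET and HOM was 1246 and 1113 cpm in Nestin-Cre SN and 1677 and 1516 cpm in AAV-Cre SN. With this list as a covariate 0 of 8 members were called in each comparison, although 3 of 8 in Nestin-Cre HOM had an unadjusted p under 0.05, beside 785 of all 14873 genes, where the fit without it had 0 members and 608 genes. With it, the AAV-Cre HET median of the members went from 0.21 to 0.07 while the Nestin-Cre HOM median went from -0.19 to -0.18. In Nestin-Cre HET it went from -0.03 to -0.18, with 8 of 8 below 0. The list holds Drd2, which striatal neurons also express, and library HET_4566 of that group was high in striatal genes. The covariate fits were not repeated without that library, and its part in these values was not tested. Genes that separate nigral from ventral tegmental dopamine neurons (10 genes, Calb1 the most abundant) had medians of 0.01, 0.00, 0.00 and -0.04 in the same order of comparisons.

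Striatal projection neuron genes had medians of 1.52, 0.06, -1.09 and -0.97, and mice HET_4566 and WT_3587 held the highest sums. Oligodendrocyte genes (6, Mbp the most abundant) had -0.29, -0.35, 0.18 and 0.05, and their sum in Nestin-Cre SN was 25916 cpm in WT, 21957 cpm in HET and 20879.8 cpm in HOM (means), with 6 of 6 genes below 0 in each Nestin-Cre comparison. Microglia genes (6, Csf1r the most abundant) had -0.38, -0.30, 0.07 and -0.02. Astrocyte genes (6, Slc1a2) had -0.12, -0.22, -0.05 and -0.12. GABA neuron genes (5, Gad1) had -0.16, -0.17, 0.05 and -0.05, and glutamate neuron genes (4, Slc17a6) -0.24, -0.26, -0.28 and 0.09. Endothelial genes (5, Slco1a4) had 0.08, 0.17, 0.10 and 0.10, choroid plexus genes (5, Ttr) -0.05, -0.53, 4.10 and -0.40, serotonin neuron genes (5, Tph2) -0.08, 0.38, 0.65 and 0.50, hypothalamic genes (6, Pmch, of which 3 were tested) 1.06, 0.59, -0.12 and 0.67, and olfactory bulb genes (6, Cdhr1, of which 4 were tested) 0.32, 0.23, -0.36 and -0.05. The part of these cell types in the members' values was not tested.

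Other genes of the pathway were followed as 4 lists of 31 genes in all. Of these, 24 were tested in Nestin-Cre SN and 25 in AAV-Cre SN, and 0 were called in any of the 4 SN comparisons by the edgeR quasi-likelihood test. At an unadjusted p under 0.05 there were 3, 1, 0 and 3, in the order HET and HOM of Nestin-Cre, then of AAV-Cre. Their medians were -0.10, 0.02, 0.06 and 0.05. The same test called 0 of them in STR, in PFC and in the interactions. Between regions of WT mice, of 25 tested genes 17 were higher and 4 lower in Nestin-Cre SN than in STR, 17 and 4 against PFC, 17 and 5 in AAV-Cre SN against STR, and 16 and 7 against PFC. Of all genes 5644 were higher and 5723 lower, 5616 and 6147, 5978 and 5397, and 5665 and 5477 in the same comparisons. In either direction these were 76.2%, 78.8%, 75.6% and 74.1% of all tested genes.

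The most abundant gene of each list in SN is given as its example. Qdpr, whose enzyme regenerates tetrahydrobiopterin, was at 739.9 ± 147 cpm in Nestin-Cre SN of WT (SD, n = 6) and 405 ± 45.7 cpm in AAV-Cre SN of WT (SD, n = 7), and differed by -0.39 in Nestin-Cre HET (SE 0.15, adjusted p = 0.518, with the highest HET library at 677 cpm below the WT mean) and -0.29 in Nestin-Cre HOM (SE 0.15, adjusted p = 0.892). The cofactor list had 7 of 7 genes below 0 in Nestin-Cre HET (median -0.20), 3 of 7 in Nestin-Cre HOM, and medians of 0.03 in AAV-Cre HET and HOM. Slc29a4, a low-affinity monoamine transporter, was at 31.2 ± 5.78 cpm in Nestin-Cre SN of WT (SD, n = 6) and differed by at most 0.32 (AAV-Cre HET, SE 0.20, adjusted p = 0.946), and the list of other monoamine transporters had medians of -0.03, 0.03, 0.18 and 0.47. Akr1a1, an aldehyde reductase, was at 369 ± 6.88 cpm (SD, n = 6) with differences from -0.08 to 0.05, and the list of other breakdown genes, which also holds Renbp, not an enzyme of dopamine breakdown, had medians of 0.01, 0.02, 0.05 and 0.03. Tph2, of serotonin synthesis, was the only tested gene of the list of other synthesis genes, of catecholamines and serotonin, at 34.2 ± 33.7 cpm in Nestin-Cre SN of WT (SD, n = 6), with differences of -0.30, 0.38, 0.67 and 0.51.

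Because the dopamine neuron genes moved together in SN, the start regions of the members were read from the RefSeq promoter table (build GRCm38.p6, 250 bases before to 50 bases after each start). It matched 7 of the 8 genes with 9 promoters, and Maob had no entry. Letters searched on both strands were AAAGGTCA, the element bound by Nr4a2 and its relatives, TAATCC, a bicoid-type core like that of Pitx3, and TGACGTCA, the cyclic AMP response element, which was added after the sequences had been seen. AAAGGTCA was in 1 of 9 member promoters (Ddc, at -73) and in 1.51% of all 32851 promoters, TAATCC in 0 of 9 and 7.06%, and TGACGTCA in 2 of 9 (Th at -45 and Slc18a2 at -4) and 1.79%. Positions count from the annotated start to the left end of the letters. Ddc has 2 entries, and the match is in 1 of them. The other, at chr11:11890359-11890658 (minus strand), holds none of these letters. Which Ddc start is used in SN was not tested. The 3 promoters with a match are shown beside that of Slc6a3, a member that followed Th closely and holds none of these letters. Capitals mark the match, and a match is a description of the letters. Their positions are chr7:142899946-142900245 (minus strand) for Th, chr11:11898095-11898394 (minus strand) for Ddc, chr19:59260628-59260927 (plus strand) for Slc18a2 and chr13:73536497-73536796 (plus strand) for Slc6a3.
Th: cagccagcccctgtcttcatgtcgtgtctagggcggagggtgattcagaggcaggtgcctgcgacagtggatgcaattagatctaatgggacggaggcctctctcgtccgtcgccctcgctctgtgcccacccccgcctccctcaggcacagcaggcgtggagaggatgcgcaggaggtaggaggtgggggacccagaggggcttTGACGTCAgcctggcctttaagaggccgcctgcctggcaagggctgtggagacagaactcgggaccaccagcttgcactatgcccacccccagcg
Ddc: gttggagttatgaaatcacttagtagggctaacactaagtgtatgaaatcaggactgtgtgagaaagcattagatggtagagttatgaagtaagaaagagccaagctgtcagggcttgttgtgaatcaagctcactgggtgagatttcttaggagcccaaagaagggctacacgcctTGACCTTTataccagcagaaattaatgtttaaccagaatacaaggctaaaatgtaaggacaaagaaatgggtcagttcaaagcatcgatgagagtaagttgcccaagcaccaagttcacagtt
Slc18a2: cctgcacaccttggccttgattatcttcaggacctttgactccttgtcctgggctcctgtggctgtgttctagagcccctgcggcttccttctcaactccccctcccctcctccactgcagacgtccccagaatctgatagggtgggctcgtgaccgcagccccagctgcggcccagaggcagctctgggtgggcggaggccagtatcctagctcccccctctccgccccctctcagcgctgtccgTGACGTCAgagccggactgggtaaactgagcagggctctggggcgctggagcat
Slc6a3: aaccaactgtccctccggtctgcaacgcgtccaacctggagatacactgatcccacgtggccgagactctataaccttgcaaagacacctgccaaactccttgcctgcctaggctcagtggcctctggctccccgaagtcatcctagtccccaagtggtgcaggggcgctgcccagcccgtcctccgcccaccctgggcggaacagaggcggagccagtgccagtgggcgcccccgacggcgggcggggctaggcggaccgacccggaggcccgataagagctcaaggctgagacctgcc
The G and C content was 64.3% for Th, 64% for Slc18a2 and 66% for Slc6a3, 41.3% for this Ddc promoter, and 52.7% for the median promoter of the table.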

How the data were processed

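The values are the gene counts that the authors deposited, and no reads were aligned again here. The authors made the libraries with a stranded mRNA kit and 75-base single-end reads, aligned them with STAR 2.5.2b to mm10 and counted over exons with featureCounts 1.5.1, after bcl2fastq 2.20.0.422. The strand setting of the counting is not given in the sources used. The gene length column was used for RPKM only.

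All 121 libraries of the table with 24412 genes were used, and 0 pairs were identical. A gene entered a fit when 3 or more of its libraries reached 1 cpm, and was tested with edgeR 4.0.16 (TMM scaling, quasi-likelihood with trended dispersion) in R 4.3.3, and p was adjusted over all tested genes by Benjamini and Hochberg. A gene was called at an adjusted p under 0.1. DESeq2 1.42.0 and the edgeR likelihood ratio test served as alternatives, and Python 3.11.15 with matplotlib 3.10.9 drew the figures. The code was tested on simulated data. Correlations used log2 cpm with genotype means removed and 1e+05 permutations.

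Libraries were matched to mice by label. Across regions, libraries with the same mouse number had a median correlation of 0.192 to 0.352, against -0.018 to -0.00869 for different mice. Single mice varied, from -0.326 to 0.727 between SN and STR of Nestin-Cre, where 13 of 18 were above 0.1. Between STR and PFC of AAV-Cre 20 of 21 were above 0.1. The match of single mice therefore rests on the labels.

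Named genes are the 8 members and Gdnf, in each pathway list the genes called in an SN genotype comparison or else the most abundant, in each marker list the most abundant and those under 0.1 cpm, and the 10 genes most like Th. The members and lists were chosen with earlier results of these data known.

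Limits are as follows. Tissue pieces mix cell types, and marker genes of neighbouring tissue varied between mice. RNA was measured, and neither protein, enzyme activity nor dopamine was analysed here. The groups held 4 to 8 mice, all male. The 2 lines differ in age and in how Cre was given. HET and HOM share WT libraries. The Cre status of single mice was not used here. The WT mice of the AAV-Cre line were injected too, so an effect of the injection itself was not tested.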

Additional observations from a re-analysis of the deposited data

Results flagged for a closer look

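A library was listed when the gap between it and its nearest neighbour in the group was large by Dixon's ratio. This marks about 1 in 20 groups by chance, and it marked 15 of 162 group values (9.26%). All were the highest library of their group.

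For Th these were AAV-Cre PFC of mouse WT_3576 (36.9 cpm) and Nestin-Cre PFC of mouse HOM_4580 (31.0 cpm). For Ddc it was AAV-Cre SN of mouse HET_3610 (882 cpm). For Slc6a3 it was AAV-Cre PFC of mouse WT_3576 (3.70 cpm). For Slc18a2 they were AAV-Cre SN of mouse HET_3610 (815 cpm) and Nestin-Cre STR of mouse WT_4612 (3.52 cpm). For Aldh1a1 it was AAV-Cre STR of mouse HET_3610 (66.0 cpm).

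Maoa had Nestin-Cre PFC of mouse WT_4396 (51.0 cpm) and Nestin-Cre STR of mouse WT_4612 (49.0 cpm). Maob had AAV-Cre STR of mouse HOM_3690 (44.2 cpm), Nestin-Cre SN of mouse HOM_4580 (81.2 cpm) and Nestin-Cre STR of mouse HOM_4568 (33.8 cpm). Gdnf had AAV-Cre SN of mouse WT_3587 (1.07 cpm), Nestin-Cre PFC of mouse HOM_4580 (0.626 cpm) and Nestin-Cre SN of mouse HET_4566 (1.66 cpm).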

How the results depend on the processing

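Members called differed from the 0 of the quasi-likelihood test only with the likelihood ratio test: 2 in Nestin-Cre STR of HET, 2 in Nestin-Cre STR of HOM, 2 in Nestin-Cre PFC of HOM and 1 in AAV-Cre PFC of HET. Leaving out in turn each SN and STR library and each HOM library of Nestin-Cre PFC gave 0. The other PFC libraries were not left out in turn.

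Directions turned in these cases. With the dopamine neuron covariate Gch1 in Nestin-Cre SN of HET was -0.022 (0.16 before) and Maoa in AAV-Cre SN of HET -0.011 (0.02 before). Without mouse HOM_4575, Maoa in Nestin-Cre STR of HOM was 0.011 (-0.01 before). Without the cortical library marked WT that shares its number, Slc6a3 in Nestin-Cre PFC of HET was 0.10 (-0.04 before). DESeq2 gave 0.054 for Slc6a3 in AAV-Cre PFC of HET (-0.02 before). Without the SN libraries highest in striatal genes, chosen after seeing the data, Maob in the HET interaction was -0.051 (0.01 before).

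Leaving out libraries in turn, log2 differences crossed 0 within these ranges. Nestin-Cre SN of HET: Ddc -0.087 to 0.069, Slc6a3 -0.085 to 0.068, Slc18a2 -0.11 to 0.056, Maob -0.11 to 0.054. Nestin-Cre SN of HOM: Maob -0.062 to 0.12. AAV-Cre SN of HET: Maoa -0.0044 to 0.046, Maob -0.085 to 0.017. AAV-Cre SN of HOM: Th -0.095 to 0.099, Ddc -0.078 to 0.089, Slc6a3 -0.16 to 0.022, Slc18a2 -0.15 to 0.0076, Maob -0.097 to 0.0092. Nestin-Cre PFC of HOM: Slc6a3 -1.06 to 0.096. The Nestin-Cre PFC extremes were without HOM_4580 and without HOM_4569, as were those of Th there, which kept its direction (-1.96 to -0.26, -0.57 before). The STR fits were left out in turn after seeing the data. Nestin-Cre STR of HOM: Ddc -0.070 to 0.15, Gch1 -0.28 to 0.27, Maoa -0.044 to 0.036. AAV-Cre STR of HET: Th -0.018 to 0.062, Aldh1a1 -0.20 to 0.077, Maob -0.087 to 0.042. AAV-Cre STR of HOM: Gch1 -0.053 to 0.16, Maoa -0.047 to 0.0042.

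Counts of all genes called moved more. Against 0 in SN, STR, PFC of HET and the interactions, 36 in Nestin-Cre PFC of HOM and 2 in AAV-Cre PFC of HOM, the likelihood ratio test called (HET, HOM) 332 and 119 in Nestin-Cre SN, 1242 and 277 in Nestin-Cre STR, 415 and 310 in Nestin-Cre PFC, 324 and 218 in AAV-Cre SN, 56 and 175 in AAV-Cre STR, 248 and 429 in AAV-Cre PFC, 689 and 162 in the interactions. DESeq2 called 5 and 1, 535 and 1, 116 and 227, 1 and 10, 0 and 5, 6 and 184, 16 and 0. With no filter there were 2 in Nestin-Cre SN of HOM and 1 in AAV-Cre SN and STR of HOM. At adjusted p under 0.05 PFC of HOM had 11 (Nestin-Cre) and 1 (AAV-Cre). DESeq2 size factors gave 55 in Nestin-Cre PFC of HOM, and leaving out the cortical library that shares the number of HOM_4575 gave 91 in Nestin-Cre PFC of HET.

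Leaving out a library gave 1 (HOM_4568), 9 (HOM_4569) and 122 (HOM_4580) in Nestin-Cre PFC of HOM, 667 (HET_4579), 299 (WT_4612), 20 (HOM_4393), 3 (HET_4628) and 1 (HET_4606) in Nestin-Cre STR of HET, 1 in Nestin-Cre SN of HET (WT_4329, WT_4394) and HOM (HET_4628, WT_4329, WT_4394), 3 in AAV-Cre SN of HOM (HOM_3607) and 1 in AAV-Cre STR of HOM (WT_3649).

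With mouse as a block 8 of 8 members were called in each region comparison. The 14 correlations with Th in SN kept direction in 49 of 49 values under the alternatives run for them. The relations with marker sums were not run under these, and some changed sign without the 2 farthest libraries, among them Maob with the striatal sum in Nestin-Cre STR and Gch1 with it in AAV-Cre STR.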
